A study of Mus musculus with 18 samples.

Results

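Aminoacyl-tRNA synthetases are the enzymes that join each amino acid to its own tRNAs before translation. The 35 genes described here were taken by symbol from the platform annotation of the arrays, using probe sets assigned to a single synthetase symbol, and each gene was represented by its brightest probe set on average across the 18 arrays. They are 35 of 18194 genes that the arrays represented in this way. Of the 35, 19 encode cytosolic enzymes and 16 encode mitochondrial enzymes. A filter on low signal left 33 of them, all 19 cytosolic and 14 mitochondrial genes, among 14020 genes tested. Mars2 and Rars2, the mitochondrial methionine and arginine enzymes, did not pass the filter. The synthetases for aspartate were not analysed here.

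Most synthetases of the cytosol work as free enzymes or dimers. A group of them, among others those for glutamate and proline (1 fused protein, Eprs), isoleucine, leucine, methionine, glutamine, arginine and lysine, sits in the multisynthetase complex, which is held together by the scaffold proteins Aimp1, Aimp2 and Eef1e1. Mitochondria use a separate set of nuclear genes, apart from Kars and Gars, each of which supplies the lysine or glycine enzyme to both compartments. Uncharged tRNA is sensed by the kinase Gcn2 (gene Eif2ak4), which raises translation of the transcription factor Atf4, and several cytosolic synthetase genes are known Atf4 targets. Double-positive thymocytes are mostly small resting cells, and growth and division of T cells go with a rising need for charged tRNA.

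The tissue was thymocytes or tumour masses of mice, 1 array per mouse. The lymphoma group held 8 CD4Cre-ctnnbex3 mice with T cell lymphoma, and the second group held 5 CD4Cre-ctnnbex3 mice before transformation of their T cells. In that genotype a Cre recombinase driven by Cd4 regulatory sequence removes exon 3 of the beta-catenin gene Ctnnb1, which leaves a stabilised protein in cells from the stage at which Cd4 is expressed. The control group held 5 mice that the sample labels call wild type and the series' design text calls LckCre, and which description is right was not settled. The labels give no age. The design text calls the mice of every group independent.

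The values are the authors' linear probe-set signals. Array medians lay between 125 and 166, and Affymetrix spike-in controls read 9.95 to 10.68 on the log2 scale on lymphoma arrays, 10.74 to 11.24 on arrays before transformation and 10.75 to 11.00 on control arrays. Sex-linked transcripts gave female signals in 6 lymphomas, male signals in 1 and both in 1 (lymphoma 4), male signals in all 5 mice before transformation, and female signals in 2 and male signals in 3 controls. The summed signal of 6 T lineage markers was 9337 to 16413 in lymphomas, 21419 to 28542 before transformation and 26253 to 30501 in controls. For 6 double-positive thymocyte markers the sums were 8229 to 17384 in lymphomas, 29736 to 47928 before transformation and 36239 to 38267 in controls. For 7 myeloid markers they were 5841 to 21444 in lymphomas, 2490 to 4770 before transformation and 2369 to 4047 in controls. Against mice before transformation 4 of the 6 T lineage and 6 of the 6 double-positive markers were called lower in lymphomas, and 5 of the 7 myeloid markers higher. Of the other lists, 0 of 5 B cell, 3 of 6 granulocyte, 1 of 6 stromal and 0 of 2 erythroid markers were called higher there, and 1 stromal marker lower. Over all genes 16.0% were called higher and 18.3% lower in that comparison. Against controls, 5 of 6 granulocyte markers were called lower both in lymphomas and before transformation. Of 6 T lineage markers, 5 were lower in lymphomas and 4 before transformation. Of 7 myeloid markers, 6 were higher and 1 lower in lymphomas, and 1 was higher before transformation. The shares of all genes against controls were 17.4% higher and 22.7% lower in lymphomas, and 4.36% and 6.18% before transformation. In the double-positive list Dntt, Rag1 and Rag2 were not at the floor in all mice of any group. The part of cell mixture, sex and spike-in level in the results below was not tested, except where a value is given. In whole tissue, fewer cells of a type and less RNA per cell cannot be told apart.

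Promoter windows of 250 bases upstream of the gene start were found in the RefSeq table (build GRCm38.p6) for 26 of the 35 genes. Windows are printed for the 3 genes with the largest rise in lymphomas against mice before transformation that had a window outside any neighbouring gene. Vars has no window in that table, and that of Kars reaches into a neighbouring gene. The 3 are Gars (chr6:55037751-55038000, plus strand), Yars2 (chr16:16302715-16302964, plus strand) and Eprs (chr1:185362794-185363043, plus strand). Capitals mark the motif TGATGNAA, a core of the amino acid response element bound by Atf4 dimers, or its reverse complement.
Gars: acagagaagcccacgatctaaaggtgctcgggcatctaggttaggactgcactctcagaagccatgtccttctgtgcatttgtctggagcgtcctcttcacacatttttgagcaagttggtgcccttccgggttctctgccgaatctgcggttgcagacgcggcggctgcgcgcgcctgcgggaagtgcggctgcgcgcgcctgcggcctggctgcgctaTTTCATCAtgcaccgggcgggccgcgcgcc
Yars2: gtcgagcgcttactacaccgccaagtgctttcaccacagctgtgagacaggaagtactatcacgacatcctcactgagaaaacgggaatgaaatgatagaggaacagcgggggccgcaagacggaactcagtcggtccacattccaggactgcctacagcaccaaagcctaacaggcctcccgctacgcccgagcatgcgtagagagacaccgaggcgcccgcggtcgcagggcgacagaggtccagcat
Eprs: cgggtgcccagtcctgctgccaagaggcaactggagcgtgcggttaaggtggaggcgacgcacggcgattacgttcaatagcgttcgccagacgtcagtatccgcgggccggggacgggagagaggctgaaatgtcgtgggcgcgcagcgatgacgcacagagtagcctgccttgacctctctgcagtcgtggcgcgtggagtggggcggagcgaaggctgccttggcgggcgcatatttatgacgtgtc

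Over all windows, searched on both strands, TGATGNAA was found in 3 of the 12 cytosolic synthetase genes with a window, in 0 of the 14 mitochondrial ones and in 3.91% of 27025 genes. The E box CACGTG, bound by Myc and related proteins, was found in 3 of the 12 cytosolic genes, in 0 of the 14 mitochondrial genes and in 6.86% of all genes. The sites outside Gars are shown in windows of 60 bases from GRCm38.p6, chosen because they hold a match. The 2 motifs do not overlap in any of them. Aars is at chr8:111033704-111033763 on the plus strand, Tars at chr15:11399659-11399718 on the minus strand, Iars at chr13:49682034-49682093 on the plus strand and Farsb at chr1:78488904-78488963 on the minus strand. Capitals mark TGATGNAA, read on the opposite strand, in the first pair and CACGTG in the second pair. A second stretch of the Aars window, not printed, held CACGTG.
Aars: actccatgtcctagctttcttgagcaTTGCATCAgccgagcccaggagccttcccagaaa
Tars: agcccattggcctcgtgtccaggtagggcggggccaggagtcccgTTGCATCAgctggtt
Iars: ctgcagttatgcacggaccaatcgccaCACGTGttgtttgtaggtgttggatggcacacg
Farsb: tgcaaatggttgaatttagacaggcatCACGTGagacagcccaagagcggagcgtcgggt

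The first comparison set lymphomas against the same genotype before transformation. Cytosolic synthetase genes rose in lymphomas: 15 of 19 passed an adjusted p of 0.05 with a higher signal and 0 of 19 with a lower one. Of the 14 mitochondrial genes tested, 3 rose and 3 fell. Over all 14020 genes 16.0% were called higher and 18.3% lower. The median log2 difference was 0.48 for cytosolic and -0.05 for mitochondrial synthetases, and -0.03 for all genes tested. After median centring or quantile normalization the mitochondrial median was 0.03 in place of -0.05. Median centring shifts every gene of a comparison by the same amount. Aars2 moved from -0.52 to -0.44 and Tars from 0.48 to 0.56, so the distances between the medians did not change with it. With 1 mouse left out in turn, the number of cytosolic genes called higher ranged from 11 to 17.

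**Figure D1:**
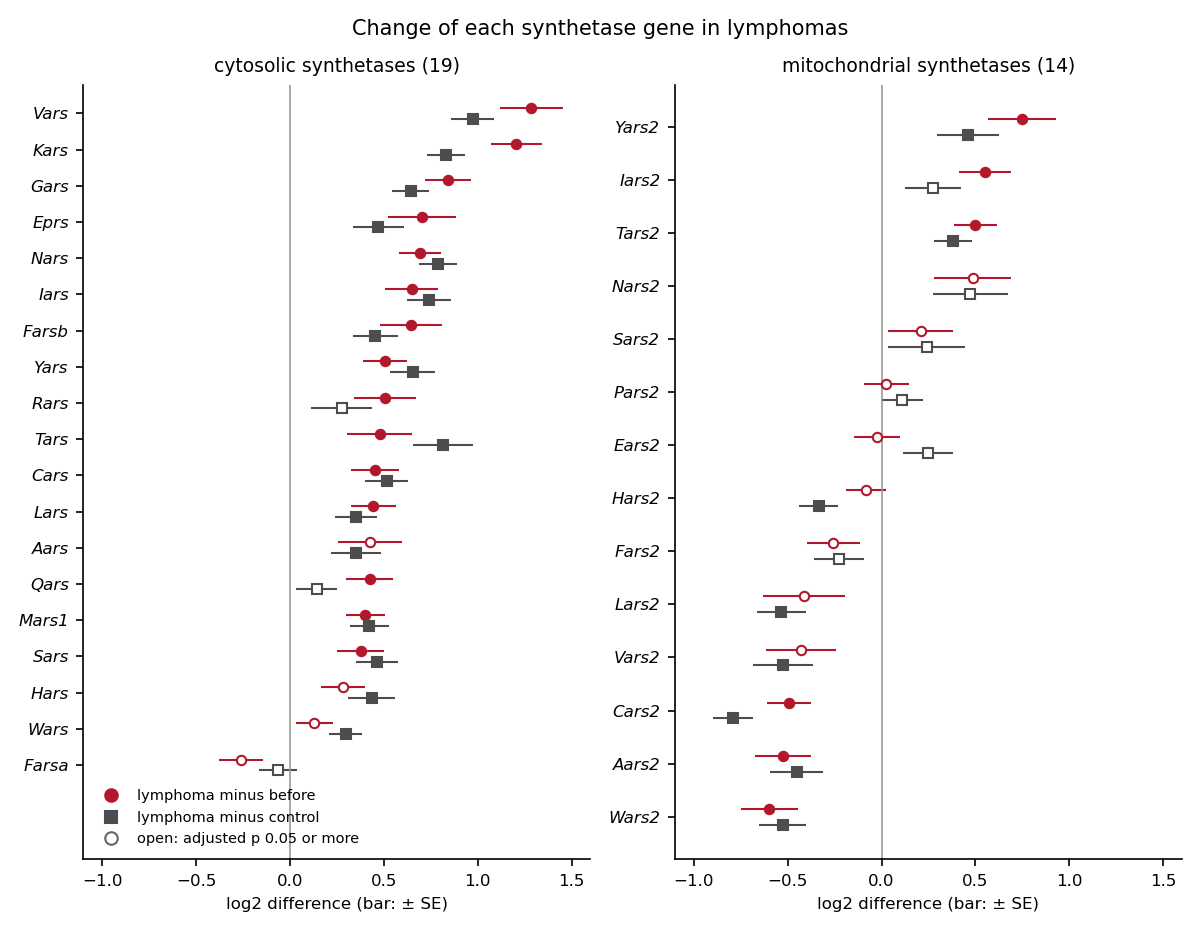
Log2 difference ± SE of each tested synthetase gene, lymphoma minus before transformation (circles) and lymphoma minus control (squares), cytosolic genes on the left and mitochondrial genes on the right, with open symbols for an adjusted p of 0.05 or more. In both comparisons 18 of the 19 cytosolic genes lie right of 0, and the mitochondrial genes lie on both sides.

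Vars, the valine enzyme, had a signal of 1091 in the lowest, 1349.9 in the median and 1852 in the highest lymphoma. Before transformation the 5 mice had 485, 474, 889, 541 and 442, and the controls had 667, 686, 662, 636 and 745. Every lymphoma was above every other mouse, and mouse 3 of the group before transformation stood above its fellows. The rise was 1.29 ± 0.17 (log2 difference ± SE), or 2.44-fold, against mice before transformation (adjusted p = 5.9e-05).

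Kars, the lysine enzyme of both cytosol and mitochondria and a member of the complex, had 1117, 1290.1 and 1522 in the lowest, median and highest lymphoma. It had 556, 717, 684, 413 and 487 before transformation and 829, 757, 620.2, 659 and 782 in controls. The lymphomas again did not overlap with either group. The log2 rise against mice before transformation was 1.21 ± 0.14, or 2.31-fold (adjusted p = 2.02e-05).

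Gars, the glycine enzyme of both compartments, had 1656, 1742 and 2258 in the lowest, median and highest lymphoma, against 998, 986, 1395, 980.5 and 881 before transformation. It rose 1.79-fold (log2 0.84 ± 0.12, adjusted p = 0.000141). Nars, which charges asparagine tRNA, ran from 1189.7 to 1777 in lymphomas, with a median of 1500.3, against 883, 1008, 998, 761 and 875 before transformation. It rose 1.62-fold (log2 0.69 ± 0.11, adjusted p = 0.000309). For both genes the lowest lymphoma lay above the highest mouse before transformation.

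All 7 tested members of the multisynthetase complex rose in this comparison, with log2 differences between 0.40 and 1.21 and a median of 0.51. After Kars the largest were Eprs, for glutamate and proline, at 0.70 ± 0.18 and Iars, for isoleucine, at 0.65 ± 0.14. Rars (arginine, 0.51 ± 0.17), Lars (leucine, 0.44 ± 0.12), Qars (glutamine, 0.43 ± 0.13) and Mars1 (methionine, 0.40 ± 0.10) followed. Outside the complex 8 of 12 cytosolic genes rose, with a median log2 difference of 0.47 over the 12. Besides Vars, Gars and Nars these were Farsb, the beta subunit of the phenylalanine enzyme, at 0.65 ± 0.17, and the enzymes for tyrosine (Yars, 0.51 ± 0.12), threonine (Tars, 0.48 ± 0.17), cysteine (Cars, 0.45 ± 0.13) and serine (Sars, 0.38 ± 0.13). By structural class of the enzyme, 8 of 9 cytosolic class I genes and 6 of 9 class II genes rose, and Eprs, which holds a domain of each class, was counted in neither.

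Calls of 4 of these genes rested on single mice. The Tars call (adjusted p = 0.0463) was lost when any of 10 of the 13 mice was left out (adjusted p = 0.0512 to 0.123). Sars lost its call without mouse 3, 4 or 5 of the group before transformation (adjusted p = 0.0535 to 0.089), Rars without mouse 4 or 5 of that group (adjusted p = 0.0735 to 0.0851) and Qars without mouse 4 (adjusted p = 0.0511). After centring each array on its median, Tars, Sars and Rars also missed the threshold, with adjusted p = 0.081, 0.074 and 0.057. Qars rested on its brightest probe set, since the log2 difference was 0.086 on the second (adjusted p = 0.64) and 0.11 on the mean of all its probe sets (adjusted p = 0.46). The mean of all probe sets also ended the Cars call (0.21, adjusted p = 0.11).

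The cytosolic genes that did not pass were Aars (alanine), Hars (histidine), Wars (tryptophan) and Farsa, the alpha subunit of the phenylalanine enzyme. Aars had a log2 difference of 0.43 ± 0.17 (adjusted p = 0.0657), Hars 0.28 ± 0.12 (0.0733) and Wars 0.13 ± 0.10 (0.32). With the mouse-number set (mice 1 and 2 against the others) as a covariate, Aars (0.51, adjusted p = 0.00086) and Hars (0.31, adjusted p = 0.028) were called higher. Each of these was also called higher when either of 2 single mice was left out, Aars with adjusted p = 0.0225 to 0.0331 and Hars with 0.0264 to 0.0421. Farsa was the single cytosolic gene with a negative value, -0.26 ± 0.12 (adjusted p = 0.0976). Its signal was 543 to 788 in lymphomas, 634 to 861 before transformation and 606 to 674 in controls. Its partner Farsb, with which it forms 1 enzyme, had 937 to 1406 in lymphomas, 491 to 1043 before transformation and 689 to 959.5 in controls. All 4 Farsa probe sets had a negative difference, and 1 of them was called lower (-1.19, adjusted p = 0.00013). Farsa was called lower with the mean of its probe sets (-0.49, adjusted p = 0.0022) and without lymphoma 6 (adjusted p = 0.0361). The difference between Farsa and Farsb was not tested.

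**Figure D2:**
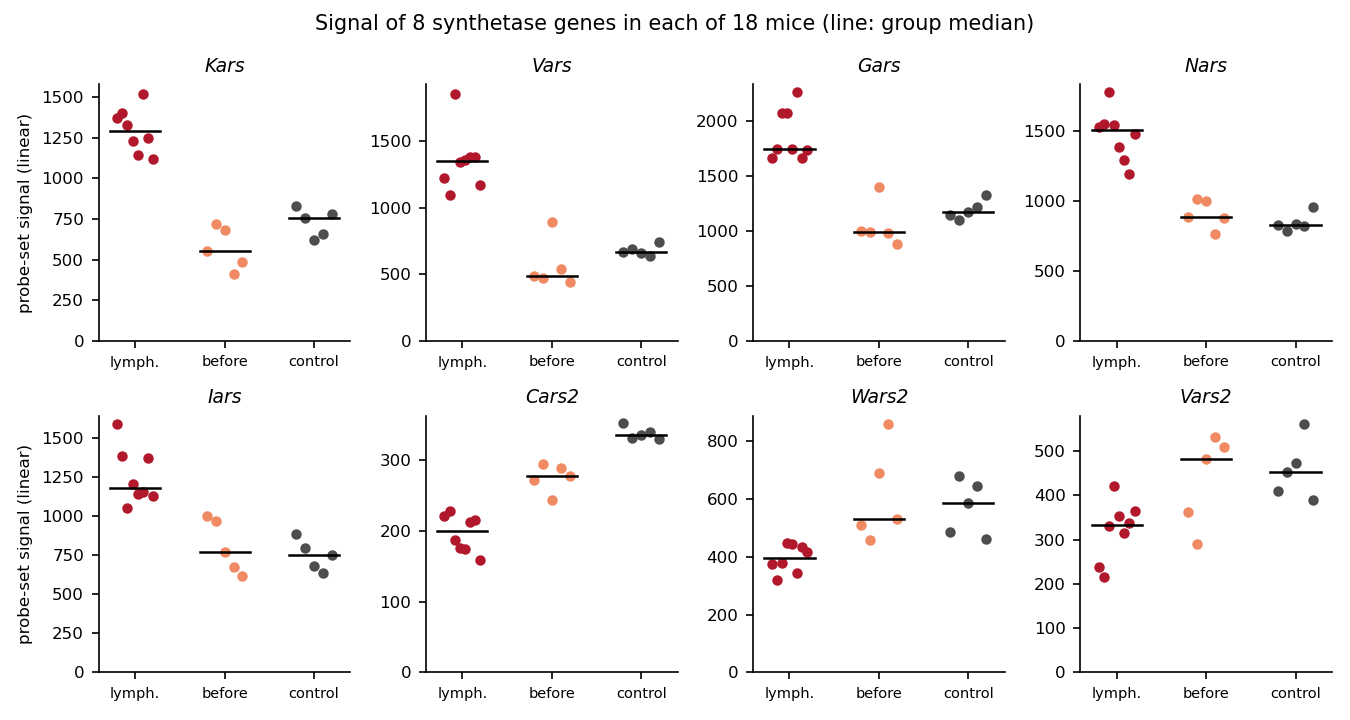
Linear probe-set signal (y axis, from 0) of 8 synthetase genes in each mouse, with lymphomas, mice before transformation and controls from left to right and a line at each group median. Kars, Vars, Gars, Nars and Iars are above both other groups in all 8 lymphomas, and Cars2 and Wars2 are below both in all 8.

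Of the 14 mitochondrial genes, 3 were called higher and 3 lower, where 16.0% and 18.3% of all genes were. These counts are near the shares of all genes. Yars2 (tyrosine) had the largest rise, with 162, 212 and 338 in the lowest, median and highest lymphoma against 157, 172, 121, 99.9 and 128 before transformation. The groups overlapped, and the log2 difference was 0.75 ± 0.18 (1.68-fold, adjusted p = 0.0057). Iars2 (isoleucine) rose by 0.55 ± 0.14 and Tars2 (threonine) by 0.50 ± 0.12 on the log2 scale.

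Wars2 (tryptophan) had 318, 396 and 447 in the lowest, median and highest lymphoma, against 508, 457, 689, 859 and 531 before transformation, with no overlap. It was 1.51-fold lower (log2 -0.60 ± 0.15, adjusted p = 0.00736). Cars2 (cysteine) had 158, 199.7 and 227 in the lowest, median and highest lymphoma, against 272, 294, 244, 289 and 277 before transformation, and was 1.41-fold lower, also with no overlap (log2 -0.49 ± 0.12, adjusted p = 0.0045). Aars2 (alanine) was 1.44-fold lower (log2 -0.52 ± 0.15, adjusted p = 0.0144) with overlapping groups. Centring each array on its median kept only the Wars2 call among these 3 (Aars2 at -0.44 with adjusted p = 0.066, Cars2 at -0.41 with adjusted p = 0.054). With the mean of all probe sets the Cars2 difference was -0.03 (adjusted p = 0.88) and that of Wars2 -0.39 (adjusted p = 0.068).

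The 8 mitochondrial genes that did not pass had log2 differences from -0.43 for Vars2 (valine) to 0.49 for Nars2 (asparagine). Between them lay Lars2 (leucine, -0.41), Fars2 (phenylalanine, -0.26), Hars2 (histidine, -0.08), Ears2 (glutamate, -0.03), Pars2 (proline, 0.03) and Sars2 (serine, 0.21). Lars2 was called lower without mouse 2 of the group before transformation (-0.63, adjusted p = 0.0156) and among mice numbered 3 and up (-0.89, adjusted p = 0.00054). Vars2 was called lower without the same mouse (adjusted p = 0.0261) and with the mouse-number set as a covariate (-0.52, adjusted p = 0.00053). Nars2 was called higher without lymphoma 6 or 7 (adjusted p = 0.0453 to 0.0499). Groups did not overlap for 10 synthetases higher and 2 lower in lymphomas, in a table where 6.67% of genes were higher and 8.84% lower without overlap.

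Set against controls, lymphomas had 18 synthetase genes higher and 6 lower of the 33 tested, where 17.4% of all genes were called higher and 22.7% lower. By compartment 16 of 19 cytosolic genes rose and 0 fell, and 2 of 14 mitochondrial genes rose and 6 fell. The median log2 difference was 0.46 for cytosolic and -0.06 for mitochondrial synthetases. This comparison uses the same lymphoma arrays as the first, so the 2 are not independent. Groups did not overlap for 12 synthetases higher and 2 lower, against 8.21% and 12.0% of all genes.

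Vars again had the largest rise (log2 0.97 ± 0.11, 1.96-fold, adjusted p = 1.34e-05), followed by Kars (0.83 ± 0.10, 1.78-fold, adjusted p = 2.22e-05). Tars had 825, 999 and 1715 in the lowest, median and highest lymphoma, against 697, 636, 590.3, 507 and 607 in controls. Every lymphoma lay above every control, with a log2 rise of 0.81 ± 0.16 (adjusted p = 0.00087). Iars had 1051, 1179 and 1593 in the lowest, median and highest lymphoma, 1004, 972, 768, 677 and 619 before transformation, and 883, 794, 684, 636 and 751 in controls. It was 0.74 ± 0.12 higher in lymphomas than in controls on the log2 scale (adjusted p = 0.000175). Nars rose by 0.79 ± 0.10, Yars by 0.65 ± 0.12, Gars by 0.64 ± 0.10 and Cars by 0.52 ± 0.11. The smaller rises were Eprs (0.47), Sars (0.46), Farsb (0.45), Hars (0.44), Mars1 (0.42), Lars (0.35), Aars (0.35) and Wars (0.30). Against controls 5 of the 7 complex members and 11 of the 12 other cytosolic genes rose. Rars (0.28 ± 0.16, adjusted p = 0.195), Qars (0.14 ± 0.11, adjusted p = 0.322) and Farsa (-0.06 ± 0.10, adjusted p = 0.655) did not pass. Rars was called higher, however, with the mouse-number set as a covariate (0.36, adjusted p = 0.0011), with mouse number as a block (0.40, adjusted p = 0.012), after quantile normalization (0.41, adjusted p = 0.011), among mice numbered 1 and 2 (0.48, adjusted p = 0.028) and among mice numbered 3 and up (0.31, adjusted p = 0.013). Qars was called higher after quantile normalization (0.28, adjusted p = 0.043) and among mice numbered 1 and 2 (0.36, adjusted p = 0.049). The Cars call was lost with the mean of all its probe sets (0.12, adjusted p = 0.48).

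Aars was the least secure of these, since the call (adjusted p = 0.0469) was lost without any of 9 of the 13 mice (adjusted p = 0.0574 to 0.132). With sex as a covariate and lymphoma 4 left out, which was the array with both signals, 11 cytosolic genes and 1 mitochondrial gene were higher and 5 mitochondrial genes lower. The shares of all genes given above belong to the main fit, so these counts cannot be read beside them. Aars, Hars, Wars, Farsb and Lars were the cytosolic genes that missed the threshold there, with adjusted p of 0.062 to 0.17. The same fit was not made against mice before transformation, all of which gave male signals.

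Among mitochondrial genes the largest fall was Cars2, with 158, 199.7 and 227 in the lowest, median and highest lymphoma against 352, 332, 335, 339 and 330.0 in controls. It was 1.73-fold lower (log2 -0.79 ± 0.11, adjusted p = 5.08e-05) and the groups did not overlap. Wars2 (-0.53 ± 0.13), Lars2 (-0.53 ± 0.13), Vars2 (-0.53 ± 0.16), Aars2 (-0.45 ± 0.14) and Hars2 (-0.33 ± 0.10) were also lower on the log2 scale. Yars2 (0.46 ± 0.16) and Tars2 (0.38 ± 0.10) were higher. The Vars2 call was lost without control 4 (adjusted p = 0.0519) and the Hars2 call without control 5 (adjusted p = 0.0592). The Yars2 call was lost without lymphoma 1 or any of controls 2 to 5 (adjusted p = 0.053 to 0.0929). After quantile normalization, Aars2 (-0.36, adjusted p = 0.078) and Hars2 (-0.21, adjusted p = 0.11) missed the threshold. The genes with no call were Iars2 (0.27), Nars2 (0.47), Ears2 (0.25), Sars2 (0.24), Pars2 (0.11) and Fars2 (-0.23). Nars2 was called higher without lymphoma 4, 6 or 7 (adjusted p = 0.0381 to 0.0434). With the mean of all probe sets the calls of Cars2 (-0.25, adjusted p = 0.065), Lars2 (-0.05, adjusted p = 0.68) and Wars2 (-0.26, adjusted p = 0.089) were lost.

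For 11 amino acids a cytosolic and a mitochondrial gene were both tested, and their log2 ratio was formed within each array, so that a scaling factor of a whole array cancels. The ratios were fitted together with all genes and adjusted over 14031 values. Against mice before transformation the ratio was higher in lymphomas for 5 of the 11 pairs and lower for 0. The largest difference was for Vars over Vars2, at 1.71 ± 0.20 (adjusted p = 2.11e-05). Aars over Aars2 (0.95 ± 0.22), Cars over Cars2 (0.95 ± 0.14), Lars over Lars2 (0.86 ± 0.25) and Wars over Wars2 (0.73 ± 0.18) followed. The Lars over Lars2 call was lost without mouse 4 or 5 of the group before transformation (adjusted p = 0.0514 to 0.0548). With the mean of all probe sets of each gene the Cars over Cars2 difference was 0.24 and no longer called (adjusted p = 0.28). Hars over Hars2 was called higher with that mean (0.49, adjusted p = 0.014) and without lymphoma 7 (adjusted p = 0.00409).

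Against controls the ratio was higher for 7 pairs and lower for 0. Vars over Vars2 differed by 1.50 ± 0.16, Cars over Cars2 by 1.31 ± 0.12, Lars over Lars2 by 0.89 ± 0.14, Wars over Wars2 by 0.82 ± 0.15, Aars over Aars2 by 0.81 ± 0.17, Hars over Hars2 by 0.77 ± 0.14 and Iars over Iars2 by 0.47 ± 0.16. The last of these was lost when any of 7 mice was left out (adjusted p = 0.0514 to 0.114). Iars over Iars2 was also not called among mice numbered 1 and 2 (0.048, adjusted p = 0.82). With sex as a covariate and lymphoma 4 left out it was 0.20 (adjusted p = 0.33). With the mean of all probe sets Cars over Cars2 fell short here too (0.37, adjusted p = 0.072). The pairs for asparagine, serine, threonine and tyrosine passed in neither comparison of lymphomas, though each passed in at least 1 of them under some alternative. Yars over Yars2 was then lower against mice before transformation (-0.31 with the mouse-number set as a covariate, adjusted p = 0.012), and Tars over Tars2 higher against controls (0.53 in that fit, adjusted p = 0.0058). Against controls Yars over Yars2 was called in the other direction, higher, among mice numbered 3 and up (0.31, adjusted p = 0.049).

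**Figure D3:**
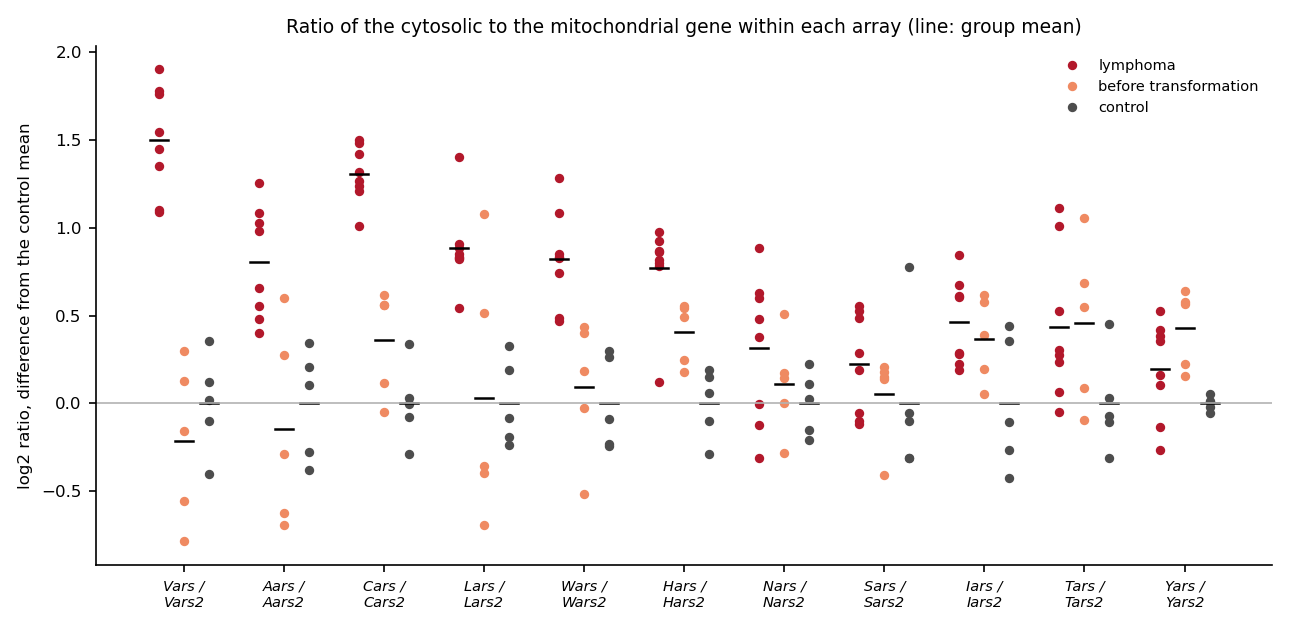
Log2 ratio of the cytosolic to the mitochondrial gene within each array, drawn as the difference from the control mean of that pair, for lymphomas, mice before transformation and controls from left to right, with a line at each group mean. The lymphoma mean of Vars over Vars2 lies 1.50 above the control mean, while Nars, Sars, Tars and Yars over their mitochondrial partners passed in neither comparison of lymphomas.

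Before transformation no synthetase passed the test against controls. The count was 0 of 33 higher and 0 of 33 lower by limma, where 4.36% of all genes were called higher and 6.18% lower. At an unadjusted p under 0.05 there were 5 synthetases, 1 higher and 4 lower, against 20.9% of all genes. The lowest adjusted p was that of Cars2, at 0.0523. Its 5 mice before transformation (272, 294, 244, 289 and 277) lay below the 5 controls (352, 332, 335, 339 and 330.0), and the log2 difference was -0.30 ± 0.09. Cars2 was the single synthetase with no overlap in that direction and Wars the single one in the other, where 6.24% of all genes were lower and 4.32% higher without overlap. Kars had a difference of -0.37 ± 0.15 (adjusted p = 0.18) and Tars one of 0.34 ± 0.14 (adjusted p = 0.186), the lowest and highest of the 33. Without mouse 3 of the group before transformation Vars (adjusted p = 0.00526) and Gars (0.0332) were called lower, and without mouse 2 Qars (0.016) and Cars2 (0.0448) were. The 7 complex members had a median difference of -0.23, the 12 other cytosolic genes 0.09, and all genes -0.02. Of the pair ratios Yars over Yars2 was 0.43 ± 0.12 higher (adjusted p = 0.0383), a call lost without any of 8 of the 10 mice (adjusted p = 0.0678 to 0.102).

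Within groups the cytosolic genes had a median SD of 0.20 (log2) in lymphomas, 0.25 before transformation and 0.17 in controls. Lymphoma 1 was the highest lymphoma for 8 of the 19 cytosolic genes and lymphoma 2 for 5, and lymphoma 7 was the lowest for 6. Before transformation, mouse 2 was the highest for 13 of 19, mouse 1 for 3, and mouse 5 was the lowest for 11. Among controls, mouse 1 was the highest for 8 of 19 and mouse 2 for 4. Mice numbered 1 and 2 were thus the highest for most cytosolic genes in every group. They are 2 of 8 lymphomas and 2 of 5 mice in each other group, and the main fits hold no term for them. The cause of this pattern was not tested. In Tars the difference among lymphomas was large, with 1715 in lymphoma 1 and 1287 in lymphoma 2 against 825 to 1075 in the other 6. Among mitochondrial genes the SD in lymphomas ranged from 0.14 to 0.47, the last in Nars2, which had 595, 556, 489 and 615 in lymphomas 1, 2, 3 and 5 and 298 to 349 in the other 4.

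**Figure D4:**
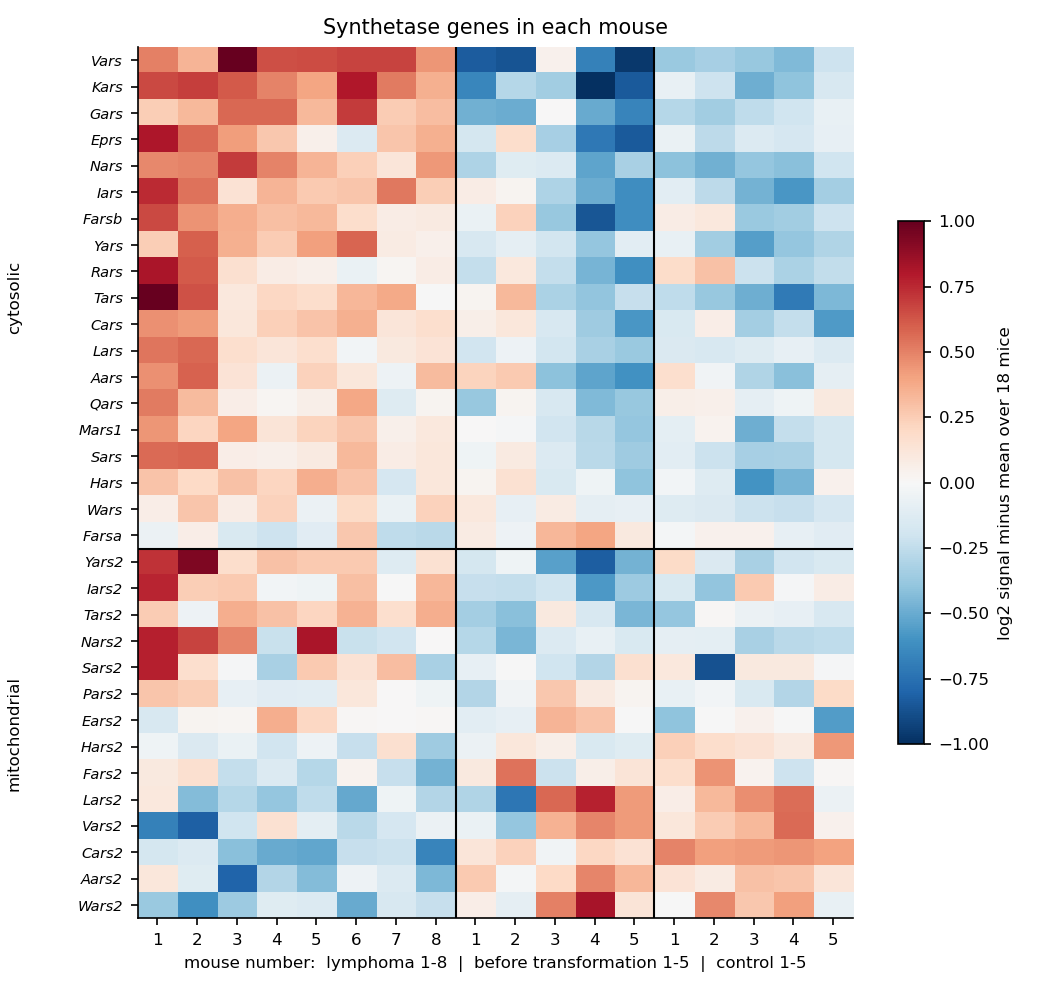
Log2 signal of the 33 tested synthetases in each mouse minus that gene's mean over the 18 mice, with colours that saturate at -1 and 1, lymphomas, mice before transformation and controls from left to right, and cytosolic genes above mitochondrial ones. Most cytosolic rows are red in the lymphoma columns, and the rows from Lars2 to Wars2 at the bottom are mostly blue there.

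Several synthetases were read by more than 1 probe set, and 20 had at least 2 past the filter. Against mice before transformation all such probe sets had the same sign in 15 of the 20, and against controls in 14. Eprs, Farsb, Iars, Nars, Sars, Tars2 and Yars2 had the same sign on each of theirs in both comparisons of lymphomas. Cars did not, since its second probe set gave -0.034 against mice before transformation and -0.27 against controls. The second probe set of Lars2 gave 0.49 and 0.21, and that of Wars2 -0.18 and 0.0018 (log2 differences against mice before transformation and against controls). The third Cars2 probe set was called higher against mice before transformation (0.69, adjusted p = 0.026), and the dimmest of 4 Qars probe sets was called lower (-0.48, adjusted p = 0.025). Ears2 had 1 probe set called higher (0.50) and 1 called lower (-1.08) in that comparison. Over all 29947 probe sets fitted, 14.7% were called higher and 22.0% lower there. Vars, Kars, Gars, Tars, Yars, Lars, Mars1 and Rars were read by a single probe set.

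Genes that act around tRNA charging were taken from lists chosen with earlier results of these data known. Over all genes, 16.0% were called higher and 18.3% lower in lymphomas against mice before transformation. Against controls the shares were 17.4% and 22.7%, and the list counts here and below are to be read beside them. Of 12 scaffold and tRNA quality control genes tested, 6 rose and 1 fell in lymphomas against mice before transformation, and 4 rose and 1 fell against controls. The scaffold protein genes Eef1e1 (1.08 ± 0.18) and Aimp2 (0.52 ± 0.11) rose against mice before transformation, and against controls they rose by 1.17 ± 0.18 and 0.75 ± 0.13. Aimp1, the third scaffold protein, rose in the first comparison (0.65 ± 0.20) and had 0.40 ± 0.16 in the second (adjusted p = 0.066). Pstk, a kinase on the route to selenocysteine tRNA, rose by 1.30 ± 0.22 and 0.81 ± 0.20, and Gatc, a subunit of the mitochondrial amidotransferase that makes glutamine tRNA, fell (-0.35 ± 0.13 and -0.42 ± 0.13).

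Of 33 tested genes for transcription, processing and modification of cytosolic tRNA, 17 rose and 2 fell against mice before transformation, and 21 rose and 3 fell against controls. Xpot, the nuclear export receptor of tRNA, rose by 1.58 ± 0.16 and 1.54 ± 0.15 on the log2 scale in the 2 comparisons. Nsun2, a tRNA cytosine methyltransferase, rose by 1.53 ± 0.17 and 1.18 ± 0.12, and Mettl1, a guanosine methyltransferase, by 0.99 ± 0.11 and 1.24 ± 0.12. The pseudouridine synthase gene Pus1 rose by 1.19 ± 0.15 in the first comparison. The RNA polymerase III subunit gene Polr3e rose by 0.78 ± 0.12 and 0.86 ± 0.10. Brf1, a polymerase III initiation factor, fell (-0.64 ± 0.12 and -0.92 ± 0.12).

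Of 29 translation initiation and elongation factors, 11 rose and 0 fell against mice before transformation, and 10 rose and 0 fell against controls. Eif3b rose by 1.04 ± 0.11 and 0.82 ± 0.09 and Eif4b by 1.01 ± 0.11 and 0.61 ± 0.09, while Eef2 (0.02 and -0.02) and Eef1a1 (-0.14 and -0.16) did not pass. Of 33 genes of mitochondrial translation other than synthetases, 18 rose and 1 fell against mice before transformation, and 14 rose and 1 fell against controls. Their median log2 differences were 0.39 and 0.31, against -0.05 and -0.06 for the mitochondrial synthetases. Mrpl19, of the large mitochondrial ribosomal subunit, rose by 0.86 ± 0.16 and 0.85 ± 0.14, and Mrps18b, of the small one, by 0.83 ± 0.17 and 0.98 ± 0.15. The difference between the 2 mitochondrial lists was not tested.

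**Figure D5:**
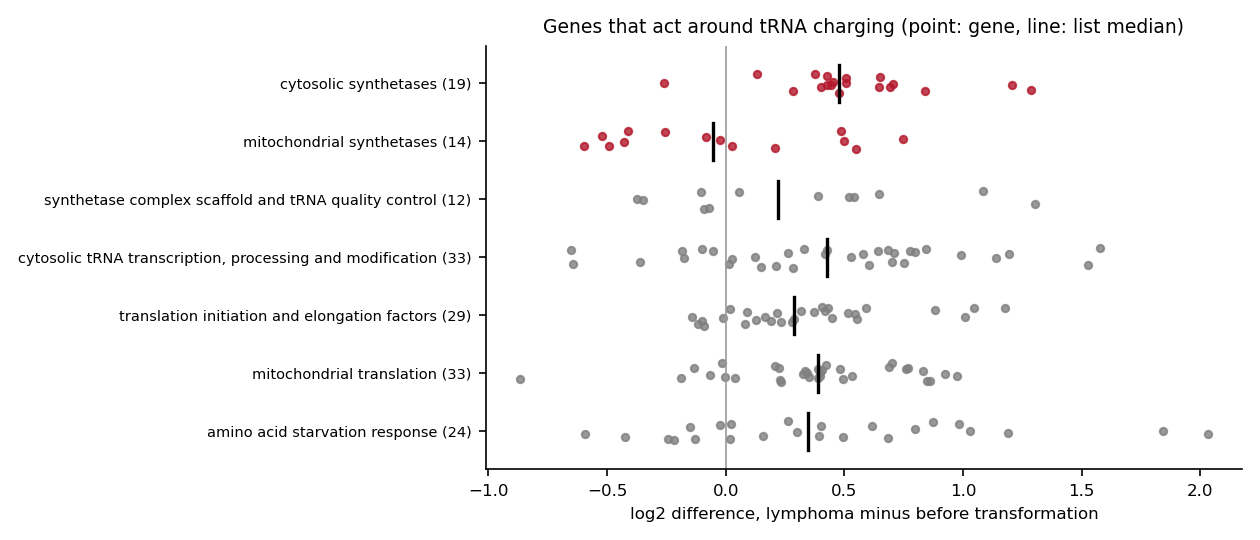
Log2 difference of each tested gene, lymphoma minus before transformation, for the 2 groups of synthetases (red) and 5 lists of genes that act around tRNA charging (grey), with a line at each median. The medians are 0.48 for cytosolic and -0.05 for mitochondrial synthetases and 0.39 for the other genes of mitochondrial translation.

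Of 24 tested genes of the amino acid starvation response, 10 rose and 1 fell against mice before transformation, and 13 rose and 0 fell against controls. The amino acid transporter gene Slc7a5 rose by 2.03 ± 0.34 and 2.27 ± 0.14, and Psat1, an enzyme of serine synthesis, and Asns, the asparagine synthetase, rose by 1.19 ± 0.16 and 0.87 ± 0.13 in the first comparison and by 1.14 ± 0.10 and 0.82 ± 0.10 in the second. Cebpb, a transcription factor that pairs with Atf4, rose by 1.84 ± 0.22 and 1.66 ± 0.23. Atf4 and Aimp1 were named for their roles, outside the rule that chose the other genes of these lists. The Atf4 transcript had -0.22 ± 0.10 against mice before transformation (adjusted p = 0.12), was 0.39 ± 0.10 higher than in controls (adjusted p = 0.0065), and was already 0.61 ± 0.07 higher in mice before transformation than in controls (adjusted p = 0.0001). Ddit3 (-0.24 and -0.07) and Trib3 (-0.02 and 0.04), also known Atf4 targets, did not pass in either comparison of lymphomas.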

How the data were processed

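Total RNA of 18 mice was hybridized to Affymetrix mouse arrays, and the authors ran dChip on the scans, per the design text, which gave the deposited intensity of each probe set on a linear scale. No source used here gives its version, model or scaling. The depth of an array has no read count, so the number of arrays limits the precision. Of 811818 values 1.20% were blank, and 605 of 606 negative values were on control 1. Values below the 20th percentile of the table (53.5, log2 5.74), and blanks, were raised to it before log2 was taken. Of 45101 probe sets, 34958 had 1 gene symbol, 932 several and 9160 none, and 51 were array controls with none. Only the first kind was used for genes. Genes above the 40th percentile (109) on at least 5 arrays were tested.

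Each comparison was fitted on its 2 groups with limma 3.58.1 in R 4.3.3 with an intensity trend, and p-values were adjusted over 14020 genes by the Benjamini-Hochberg method. A call is an adjusted p under 0.05. The fit was tested on simulated data with changes planted in brighter genes. Of planted log2 changes of 0.5, it recovered 41.8% for mice before transformation against controls. It recovered 26.9% and 44.8% for lymphomas against mice before transformation and against controls. For planted changes of 1 the shares were 85.1%, 85.1% and 86.6% in that order. Differences near 0.5 or below can therefore miss the threshold. Some mitochondrial synthetases, among them Cars2, Ears2, Pars2, Sars2 and Yars2, were dimmer than the genes with planted changes. The shares do not describe these. The members and lists were chosen with earlier results of these data known. Of each further list, the text names up to 6 genes with the smallest adjusted p in a comparison of lymphomas and up to 2 that did not pass. Groups and mouse numbers came from the labels. Numbers were not taken as pairs. Alternatives changed the floor, filter, scaling, probe set, spread, mouse sets and sex term, and left out each mouse.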

Additional observations from a re-analysis of the deposited data

Results flagged for a closer look

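In 8 of 102 combinations of gene and group, 1 mouse lay farther from its group than Dixon's test at the 95% level allows, where chance gives about 1 in 20. Vars stood high in lymphoma 3 (1852, next 1378) and in mouse 3 before transformation (889, next 541), and Gars stood high in the same mouse 3 (1395, next 998). Iars2 was high in lymphoma 1 (552, next 409) and Rars2, at the floor in 5 of 8 lymphomas, was high in lymphoma 6 (149, next 86.3). Hars was low in lymphoma 7 (704, next 859), Tars2 in lymphoma 2 (572, next 668) and Sars2 in control 2 (97.5, next 177).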

How the results depend on the processing

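Counts of synthetases called are given as higher and lower. With 1 mouse left out they ranged, for lymphomas against mice before transformation, over 14 to 20 and 3 to 5 (18 and 3 with all mice), for lymphomas against controls over 16 to 19 and 5 to 6 (18 and 6), and for mice before transformation against controls over 0 to 0 and 0 to 2 (0 and 0). In that last comparison 1 gene, Cars2, was lower with a floor at the 30th percentile, with no filter and with no intensity trend. With the second probe set 1 other gene, Tars2, was lower (-0.47, adjusted p = 0.038). With the mouse-number set as a covariate 1 was higher (Tars) and 1 lower (Cars2). In the first, median centring left 1 lower, the second probe set of 20 genes gave 9 and 1, mice numbered 1 and 2 gave 11 and 0, and mice numbered 3 and up gave 6 lower. Median centring also lost the higher calls of Rars, Sars and Tars, and mice numbered 3 and up added Aars and Hars as higher. Against controls the second probe set gave 7 and 2, the mean of all probe sets 3 lower, and mice numbered 1 and 2 gave 2 lower. The fit of mice numbered 1 and 2 also lost the higher calls of Aars, Cars, Hars, Mars1, Tars2, Wars and Yars. It added Nars2, Qars and Rars as higher. Over all 14020 genes the numbers called moved with the setting too. For mice before transformation against controls they were 611 and 867 in the main fit and 424 and 644 among mice numbered 1 and 2. With the mouse-number set as a covariate they were 778 and 1190. The counts of synthetases are therefore not read as results about synthetases alone. With the second probe set the sign turned for Cars (-0.034), Ears2 (0.50) and Lars2 (0.49) in the first comparison and for Cars (-0.27), Lars2 (0.21) and Wars2 (0.0018) against controls. The cause was not tested. Some of these fits hold fewer genes or mice. Scaling moved the split of all calls: 46.6% of calls were higher for lymphomas against mice before transformation, 58.9% after quantile normalization and 58.6% after median centring, and against controls 43.3%, 58.4% and 56.4%. Quantile normalization moved the median gene against controls to 0.08, which was -0.03 as deposited, and gave 22 synthetases higher and 4 lower. Same-numbered mice deviated from their group means with r of 0.09 to 0.41 (lymphomas and mice before transformation), -0.07 to 0.27 (lymphomas and controls) and -0.14 to 0.38 (mice before transformation and controls), and only 2 of 5 numbered mice of the first-named group correlated best with their own number in each. The fit with mouse number as a replicate block gave 20 and 4, 18 and 4, and 0 and 0 in that order. Calls of 8 synthetases held under every alternative that could be fitted against mice before transformation (Eprs, Gars, Iars, Kars, Lars, Nars, Vars and Yars2) and of 7 against controls (Gars, Iars, Kars, Nars, Sars, Tars and Vars). Of these, Gars, Kars, Lars, Tars and Vars are read by 1 probe set, so a second probe set could not be tried for them. The sex term was fitted only against controls. Probe-set signals near the floor limit what can be said of Rars2 and Mars2.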

Other observations

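Vldlr, the lipoprotein receptor gene listed with the amino acid starvation response, was 1.62 ± 0.15 higher on the log2 scale in mice before transformation than in controls (adjusted p = 2.7e-05), 0.59 ± 0.17 lower in lymphomas than in mice before transformation (log2 -0.59, adjusted p = 0.014) and 1.03 ± 0.16 higher in lymphomas than in controls (adjusted p = 0.00014). Psph, the last enzyme of serine synthesis, was lower in mice before transformation than in controls (-0.59 ± 0.15, adjusted p = 0.027). Maf1, a repressor of RNA polymerase III, was lower in mice before transformation than in controls (-0.29 ± 0.07, adjusted p = 0.017) and lower in lymphomas than in controls (-0.65 ± 0.14, adjusted p = 0.0023). Mrpl20 was the single gene of the mitochondrial translation list that fell in lymphomas, with a log2 difference of -0.87 ± 0.26 against mice before transformation and -0.99 ± 0.24 against controls. Vldlr, Psph, Maf1 and Mrpl20 were chosen after their values were seen.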
